A study of Mus musculus with 20 samples.

Results

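Edited sites were described in 5 genes of neuronal calcium and cAMP signalling, namely Camk2a, Camkk2, Ppp3ca, Prkce and Adcy1, out of 3731 genes with a site in any of the brain regions studied. The members were named in advance from results of these same lists, in which their site numbers or levels had differed between regions. Differences between regions in these genes are therefore given as descriptions without a test. The genes held 207 of the 25978 listed sites (cortex 175, cerebellum 58). They made up 0.979% of the cortical list, 1.16% of the hippocampal list and 0.509% of the cerebellar list.

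The mice carried a tamoxifen-inducible transgene. APOBEC1-YTH joins the cytidine deaminase APOBEC1 to the YTH domain, which binds N6-methyladenosine (m6A), an adenosine of mRNA that carries a methyl group, so that cytidines beside an m6A are read as uridines. APOBEC1-YTHmut served as the background control for such edits in the same tissues. All animals of both constructs received tamoxifen by intraperitoneal injection, at 20 mg/kg on a 24 h schedule over 5 days, and tissue was collected 7 days after the final injection. Whole cortex, whole hippocampus and whole cerebellum each gave 4 APOBEC1-YTH libraries of poly(A) RNA, all from the same 4 animal numbers, and 3, 2 and 3 APOBEC1-YTHmut libraries in that order. The sources used here give neither the age of the mice nor the promoter or cell types that express the transgene. Each region is represented by 1 list with 1 value per site, called the editing level here and read as the percentage of reads edited at that cytidine. The levels thus have no spread between animals, and read depth is unknown. No separate value from an APOBEC1-YTHmut library was used here. The listed values were taken to be those of APOBEC1-YTH, an assumption that the lists leave unsettled.

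The tissue labels were compared with marker genes through the sites listed for them, which is not a measure of expression. Of 11 cerebellar markers, 6 had sites and all 6 were listed in cerebellum, with 149 sites there, 10 in cortex and 3 in hippocampus. Pcp2, Zic2, Gabra6, Cbln1 and Cbln3 had none in any region. Of 8 cortical markers, 6 were listed in cortex, 2 in hippocampus and 0 in cerebellum, with 23, 8 and 0 sites. Among them, Cdh13 did not separate cortex from hippocampus, with 6 and 7 sites. Of 8 hippocampal markers, 4 had sites in hippocampus, 40 in all, against 9 in cortex and 1 in cerebellum. The 9 cortical ones were all in Wfs1, which had 10 in hippocampus.

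Calcium that enters a neuron binds calmodulin, and calcium-loaded calmodulin switches on CaM kinases, the phosphatase calcineurin and calcium-sensitive adenylyl cyclases. CaMKII phosphorylates postsynaptic proteins during long-term potentiation, while calcineurin removes phosphates and is required for forms of long-term depression. Adenylyl cyclase turns the calcium signal into cAMP, and many protein kinase C enzymes respond to the lipid diacylglycerol. Granule cells and Purkinje cells are neurons of the cerebellum, whereas excitatory pyramidal neurons are abundant in cortex and hippocampus. Because whole tissue was used, a lower level can come from fewer cells with an edited transcript or from less editing per cell, and these cannot be told apart.

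Camk2a, which encodes the alpha subunit of CaMKII, had 25 cortical, 26 hippocampal and 25 cerebellar sites. Camkk2, the kinase that activates CaMKI and CaMKIV, had 22, 9 and 4 sites in these regions. Ppp3ca, a catalytic subunit of calcineurin, had 25, 34 and 12. Prkce, the epsilon isoform of protein kinase C, had 63, 59 and 12. Adcy1, an adenylyl cyclase stimulated by calcium and calmodulin, had 40, 28 and 5. Camk2a was thus near equal in the 3 lists, and the other genes had their smallest number in cerebellum.

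**Figure D1:**
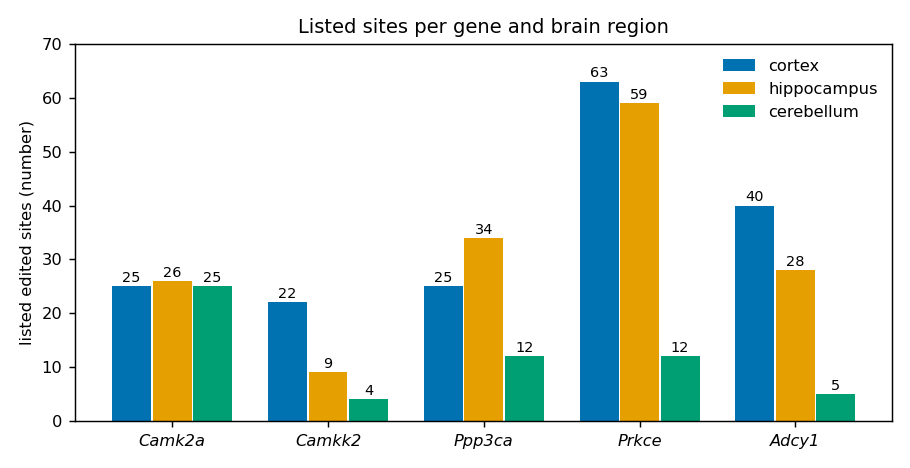
Number of listed edited sites (vertical axis) for each gene, with 1 bar each for cortex, hippocampus and cerebellum. Camk2a stands at 25, 26 and 25, whereas Prkce goes from 63 in cortex to 12 in cerebellum and Adcy1 from 40 to 5.

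With 1 added to each number, Adcy1 had 6.83 times as many sites in cortex as in cerebellum, Prkce 4.92 times, Camkk2 4.60 times and Ppp3ca 2.0 times, against 1.0 for Camk2a. So 4 of the 5 genes had at least 2-fold more sites in cortex, beside 49.5% of all 3536 genes listed in either region and 31.9% of the 395 genes with 20 or more sites over both lists. The reverse held for 0 of the 5, beside 14.6% and 10.1%. Because these numbers helped to choose the genes, nothing is read from that count. Against hippocampus, the same 4 genes had at least 2-fold more sites than in cerebellum, from 2.0 times for Camkk2 to 4.83 times for Adcy1, where 36.6% of 3083 genes did so and 23.6% did the reverse. Between cortex and hippocampus, Camkk2 with 2.30 times as many cortical sites was past 2-fold, as were 36.2% of 3442 genes. Ppp3ca lay the other way, with 1.35 times as many sites in hippocampus as in cortex, short of the 2-fold that 9.76% of all genes reached in that direction.

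Position along the genes was not used to choose them. All 207 sites lay inside the RefSeq gene spans of GRCm38.p6, the assembly of mm10. Distances below are measured along the genome to the annotated 3′ end of the span. Exon and UTR annotation was not used here, so no site is assigned to a transcript part.

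The sites of Camk2a (gene ID 12322, chromosome 18, 60925307 to 60988152, plus strand) lay in the last 3222 nt of the gene. They formed groups, and the 500-nt window with the most sites held 14 of the 32, from 2070 to 1634 nt before the end. Another listed site of the gene lay within 10 nt of 53.1% of Camk2a sites, compared with 29.1% of the sites of all genes with 20 or more sites. The share was 40.0% for Ppp3ca, 32.8% for Prkce, 32.0% for Camkk2 and 16.7% for Adcy1.

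Ppp3ca (gene ID 19055, chromosome 3, 136669714 to 136937727, plus strand) had all its 35 sites in the last 2544 nt of a span of 268014 nt. Prkce (gene ID 18754, chromosome 17, 86167785 to 86657919, plus strand) had 60 of its 67 sites in the last 4 kb. Of its other sites, 5 lay near the 5′ end, 489048 nt or more before the 3′ end, and 2 lay inside the gene at 175746 and 181031 nt. None of these 7 was listed in cerebellum, and the highest level among them was 2.43%.

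Adcy1 (gene ID 432530, chromosome 11, 7063433 to 7178506, plus strand) had its sites spread more widely, at a median of 5508.5 nt before the end. The densest 500-nt window held 11 of its 48 sites, from 6060 to 5650 nt. The 25 sites of Camkk2 (gene ID 207565, chromosome 5, 122718380 to 122779522, minus strand) lay in a stretch of 2771 nt that began 12806 nt before the annotated 3′ end. The span covers all annotated transcripts, and which of them end near these sites was not examined here.

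**Figure D2:**
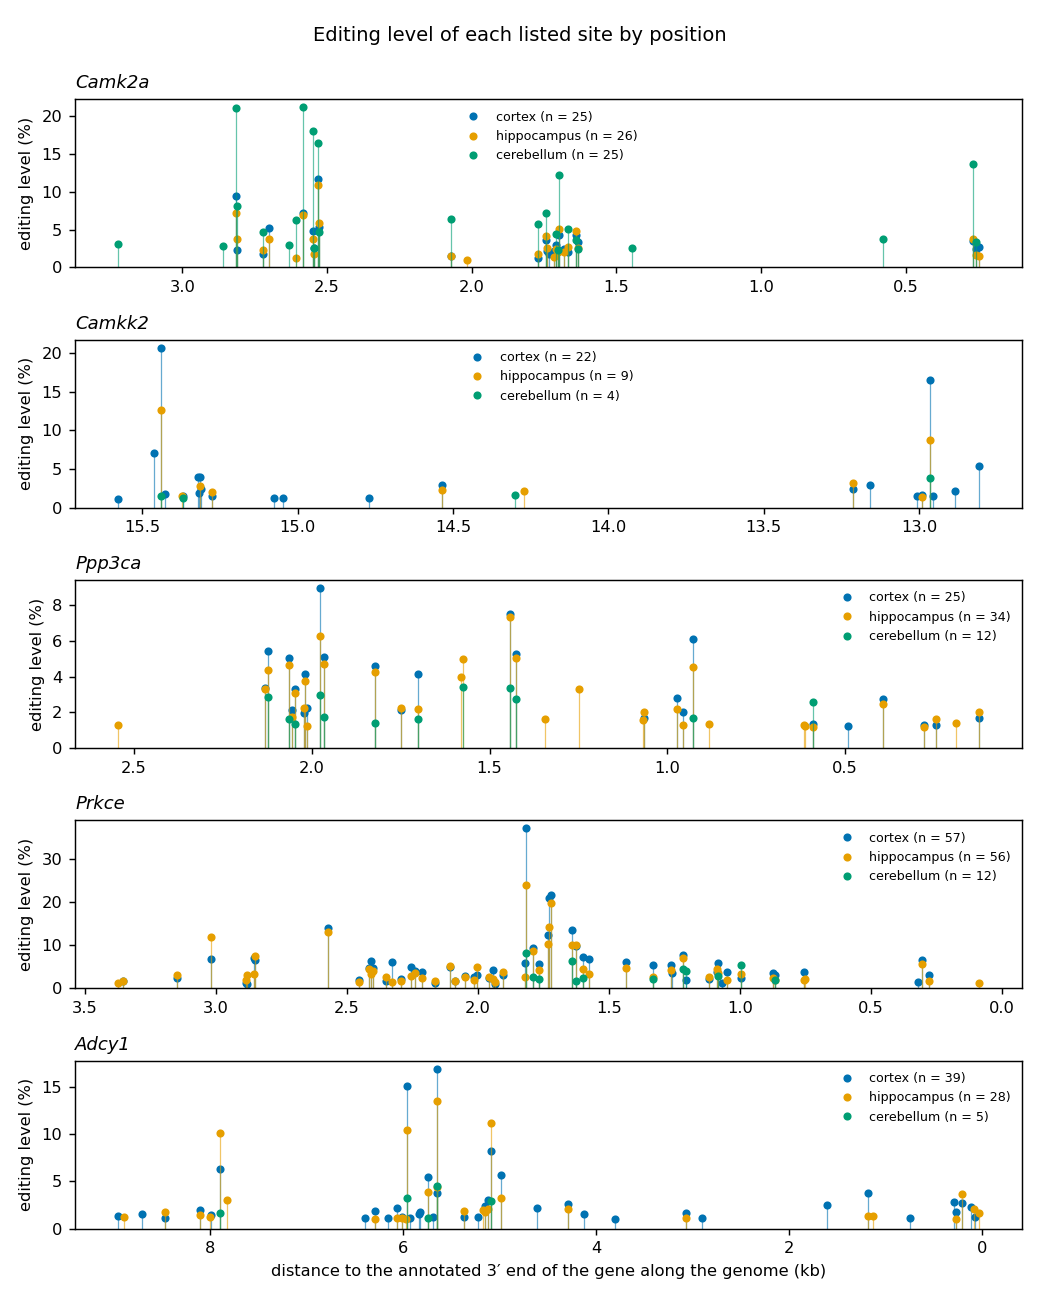
Editing level in percent (vertical axis) of each listed site against its distance to the annotated 3′ end of the gene in kb (horizontal axis, 3′ end to the right), coloured by region, with the number of sites drawn. The 7 sites of Prkce beyond 4 kb and the Adcy1 site at 17162 nt are left out, and the tallest points are cerebellar in Camk2a and from cortex or hippocampus in the other genes.

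The median level of Camk2a was higher in cerebellum, while its number of listed sites was near equal in the regions. That equality depended on the minimum level, as described below. The median cortical level was 2.68%, the hippocampal one 2.51% and the cerebellar one 4.69%. Sites of 10% or more numbered 1 in cortex, 1 in hippocampus and 6 in cerebellum. The other 4 genes had 0 cerebellar sites at that level. No share of all listed sites at 10% or more is given here, so these counts stand without a background. Taking every listed site together, the cerebellar median of 3.36% also exceeded the cortical 2.91% and the hippocampal 2.82%.

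The highest cerebellar level of Camk2a was at position 60985568, with 7.20% in cortex, 6.94% in hippocampus and 21.2% in cerebellum. Position 60985337 had 9.41%, 7.18% and 21.1% in these regions. At both sites cortex and hippocampus lay close together and cerebellum stood above them. The site highest in cortex and hippocampus, 60985620, had 11.7% and 10.96% there and 16.5% in cerebellum.

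Of the 19 Camk2a sites shared by cortex and cerebellum, 16 were higher in cerebellum and 10 of these at least 2-fold, and 0 were 2-fold higher in cortex. Over all 6627 sites shared by these regions, 52.6% were higher in cerebellum and 47.1% in cortex, and 15.1% were at least 2-fold higher in cerebellum and 12.0% at least 2-fold higher in cortex. The median log2 ratio of cerebellum to cortex was 1.16 over the Camk2a sites (SD 0.88 over sites, not animals), beside 0.06 over all shared sites. The largest ratio was at 60986380, 4.60 times, from 1.24% in cortex to 5.71% in cerebellum. The lowest was at 60986518, with 3.34% in cortex and 2.38% in cerebellum.

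Hippocampus gave a like picture against the same cerebellar list, so the comparisons are not independent. Of 20 shared Camk2a sites, 17 were higher in cerebellum, 11 at least 2-fold. Of all 5688 sites shared by these regions, 51.9% were higher in cerebellum, 15.2% at least 2-fold. The largest ratio was 5.0 times at 60985546, from 1.25% in hippocampus to 6.25% in cerebellum, a site not listed in cortex. The lowest was at 60986512, with 4.87% in hippocampus and 3.61% in cerebellum. Cortex and hippocampus shared 24 Camk2a sites, and 0 of them differed 2-fold. They were 96.0% of the cortical and 92.3% of the hippocampal ones, beside 52.5% and 69.7% over all genes. Of all 9379 sites shared by these regions, 51.2% were higher in cortex, 8.17% at least 2-fold, and 48.4% higher in hippocampus, 7.37% at least 2-fold. The most unequal Camk2a sites were 60985342, with 2.29% in cortex and 3.75% in hippocampus, and 60987907, with 2.68% and 1.5%.

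**Figure D3:**
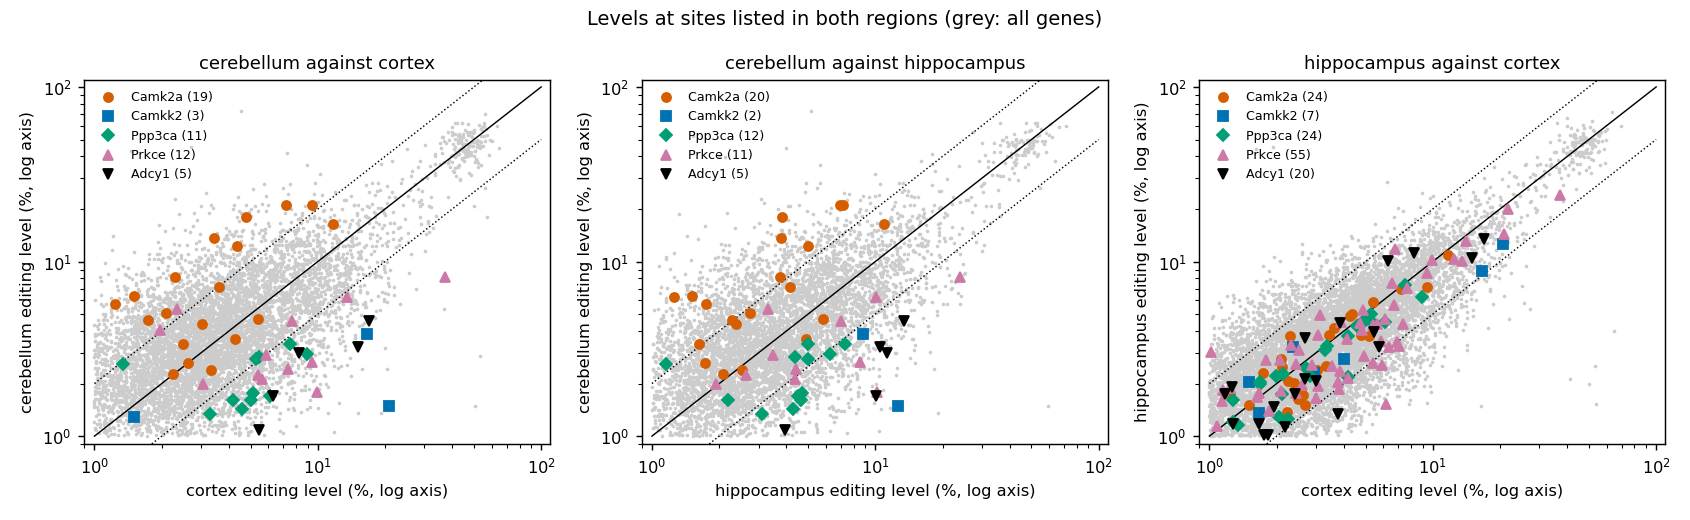
Editing level in percent at sites listed in both regions of a pair, on log axes, with the 5 genes coloured, their numbers of shared sites in brackets and all genes in grey. The solid line marks equal levels and the dotted lines 2-fold differences; Camk2a lies mostly above the line against cerebellum, the other genes mostly below it, and cortex and hippocampus lie near it.

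Neighbouring cytidines of Camk2a did not share 1 ratio. At 60985602 the level was 4.78% in cortex and 18.0% in cerebellum, while 4 nt on, at 60985606, it was 2.62% and 2.63%. At 60986452 it was 2.25% and 2.27%, and 3 nt on, at 60986455, 4.33% and 12.2%. The pair 60987886 and 60987895 had 3.43% and 2.48% in cortex against 13.6% and 3.39% in cerebellum. The log2 ratios of these neighbours differed by 1 or more in 3 of the 7 Camk2a pairs within 10 nt. That was so for 30.2% of 691 such pairs over all genes, so the count is near the background.

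Low levels were missing from the cerebellar list of Camk2a. The lowest cortical level was 1.24%, the lowest hippocampal one 1% and the lowest cerebellar one 2.27%. Below 2% lay 16.0% of its cortical and 30.8% of its hippocampal sites and 0 of 25 cerebellar ones, where 22.0% of all cerebellar sites lay below 2%. Of 113 genes with 20 or more cerebellar sites, 9 had no level below 2%, Camk2a among them. When only Camk2a sites of 2.27% or more were counted, a limit chosen after the data had been seen, 17 cortical, 16 hippocampal and 25 cerebellar ones were left. Read depth was not given, and its part in the missing low levels, in the site number and in the higher median was not tested.

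The 6 cortical sites of Camk2a that cerebellum lacked had a median of 2.31% in cortex, against 3.34% for the 19 it also listed. Over all genes, these medians were 2.59% and 3.6%, so the order was that of the whole list. The strongest of the missing Camk2a sites, 60985450, had 5.16% in cortex and 3.76% in hippocampus. In the other direction, 5 sites were listed in cerebellum alone, at 2.60% to 3.70%. Cortex and cerebellum thus shared 76.0% of the Camk2a sites of either region, beside 37.1% of all cortical and 58.2% of all cerebellar sites.

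By median level, Camk2a stood lower within each list than by site number, and the gap was smallest in cerebellum. Among genes with 5 or more sites, 87.8% had fewer cortical sites than Camk2a, 89.8% fewer hippocampal and 89.5% fewer cerebellar ones. By median level, 47.7% lay below it in cortex, 41.1% in hippocampus and 79.0% in cerebellum. Of 113 genes with 15 or more sites in cortex and in cerebellum and at least 5 shared, Camk2a ranked 4 by the median log2 ratio of cerebellum to cortex. Their median was 0.15 and their range -1.45 to 1.91. Of the 53 among them whose site numbers lay within 1.25-fold, it ranked 2. Because Camk2a was chosen from these lists with its site number and level known, nothing is read from these ranks.

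**Figure D4:**
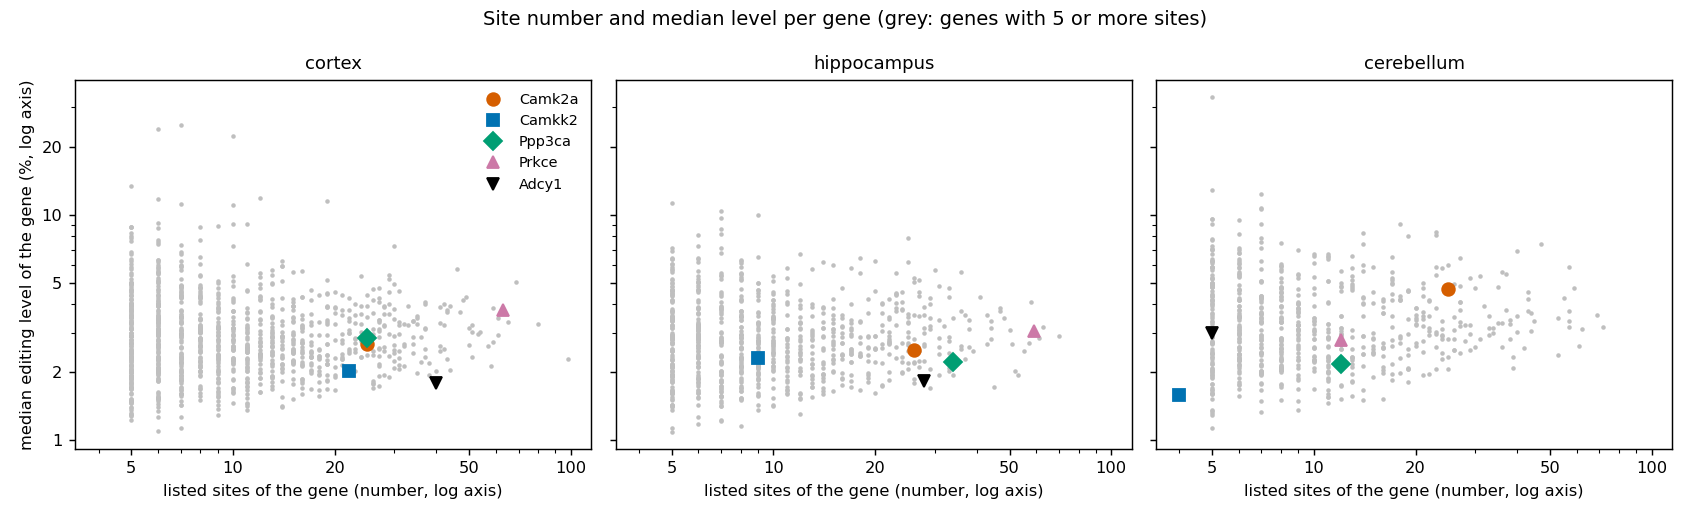
Number of listed sites (horizontal log axis) and median editing level in percent (vertical log axis) of each gene in the 3 regions, with genes of 5 or more sites in grey. Camk2a keeps its place on the number axis and moves from 2.68% in cortex to 4.69% in cerebellum; Camkk2, with 4 cerebellar sites, is drawn below the limit for grey points.

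Camkk2 had its edits concentrated at a pair of sites. Position 122733819 had 20.7% in cortex, 12.7% in hippocampus and 1.49% in cerebellum. Position 122731346 had 16.5%, 8.78% and 3.85%. They were the highest sites in cortex and in hippocampus, 122731346 was the highest in cerebellum, and the regions stood in the same order at both. Of the other 20 cortical sites, none exceeded 7.08%, and the cortical median was 2.04%.

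The cerebellar sites of Camkk2 numbered 4, of which 3 were also cortical, as were 58.2% of all cerebellar sites. All 3 Camkk2 sites were lower in cerebellum. The ratio of cortex to cerebellum was 13.9 at 122733819 and 4.30 at 122731346. At the third shared site, 122733749, the levels were 1.51% and 1.28%. Cortex alone listed 14 Camkk2 sites, and hippocampus shared 7 of the 22 cortical ones, or 31.8%, beside 52.5% of all cortical sites. Hippocampus was within 2-fold of cortex at all 7, from 122731346 above to 122733656, with 1.5% in cortex and 2.05% in hippocampus.

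Ppp3ca had lower levels than the other genes at its strongest sites, and many of them. Its highest cortical site, 136935750, had 8.96% in cortex, 6.26% in hippocampus and 2.97% in cerebellum. The highest hippocampal site, 136936284, had 7.52%, 7.32% and 3.36%. In both, cortex and hippocampus were near each other and cerebellum lay below. The highest cerebellar site, 136936153, had 3.39% there and 5.01% in hippocampus and was not listed in cortex.

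Cerebellum listed 12 Ppp3ca sites, 11 of which cortex and 12 of which hippocampus also listed. Of all cerebellar sites, cortex listed 58.2% and hippocampus 49.9%. Of the 11 Ppp3ca sites, 10 were higher in cortex and 8 at least 2-fold, with a median log2 ratio of cerebellum to cortex of -1.38 (SD 0.77 over sites). The most unequal was 136936798, with 6.11% in cortex, 4.51% in hippocampus and 1.70% in cerebellum. The exception was 136937135, with 1.34%, 1.16% and 2.59%. Against hippocampus, 11 of 12 were lower in cerebellum, 7 of them at least 2-fold, the most unequal being 136935906 with 4.28% and 1.43%.

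Cortex and hippocampus lay close at the 24 Ppp3ca sites they shared, with 0 beyond 2-fold, although 19 of the 24 were higher in cortex. The extremes were 136936026, with 4.16% in cortex and 2.18% in hippocampus, and 136937483, with 1.28% and 1.62%. The larger number in hippocampus came from 9 sites listed there alone, at 1.23% to 3.99%. All 5 strongest cortical sites were also listed in cerebellum, and the 14 cortical sites that cerebellum lacked did not exceed 4.17%. Over all genes, cortical sites that cerebellum lacked also lay lower, with a median of 2.59% against 3.6% for those it listed.

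Prkce had the highest single level of the 5 genes. Position 86656104 had 37.1% in cortex, 24.0% in hippocampus and 8.14% in cerebellum. It was the highest site of the gene in every region. The sites 86656191 and 86656197, under 100 nt further on, had 20.9% and 21.7% in cortex and 14.3% and 19.9% in hippocampus. Cerebellum listed neither. Of the 5 strongest Prkce sites, 2 in cortex and 1 in hippocampus were listed in cerebellum, against 5 in both for Ppp3ca.

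All 12 cerebellar sites of Prkce were also cortical, where 58.2% of all cerebellar sites were. Of the 12 Prkce sites, 10 were higher in cortex, 8 at least 2-fold. The median log2 ratio of cerebellum to cortex was -1.19 (SD 1.14 over sites). The most unequal was 86656293, with 9.93% in cortex, 10.2% in hippocampus and 1.80% in cerebellum. Levels at 86656922 ran the other way, with 2.33%, 3.31% and 5.38%, and so did those at 86656714, with 1.96% in cortex and 4.08% in cerebellum. Against hippocampus, 9 of 11 shared sites were lower in cerebellum, 4 at least 2-fold, with a median log2 ratio of -0.69 (SD 0.89 over sites).

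Between cortex and hippocampus, most shared Prkce sites were within 2-fold. Of 55 shared sites, 36 were higher in cortex, 5 of them at least 2-fold, and 19 higher in hippocampus, 1 at least 2-fold. Of all sites shared by these regions, 51.2% were higher in cortex, 8.17% at least 2-fold. In hippocampus 48.4% were higher, 7.37% at least 2-fold. Position 86655591 had 6.15% in cortex and 1.52% in hippocampus. Position 86655036 had 1.02% and 3.04%. As a median over the 55 Prkce sites, the log2 ratio of the hippocampal to the cortical level was -0.24 (SD 0.62 over sites).

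Adcy1 combined many weak sites with a few strong ones. Its highest site, 7172853, had 16.9% in cortex, 13.5% in hippocampus and 4.57% in cerebellum. Position 7172550 had 15.1%, 10.5% and 3.23%. Cortex and hippocampus were again above cerebellum at both. Yet 22 of the 40 cortical sites and 16 of the 28 hippocampal ones lay below 2%, where 28.7% and 30.5% of all sites in these lists did. Over all its sites, Adcy1 had a median of 1.80% in cortex, 1.84% in hippocampus and 2.98% in cerebellum, so by this measure Adcy1, like Camk2a, was higher in cerebellum. By median level, 9.96% of genes with 5 or more sites lay below Adcy1 in cortex, 13.3% in hippocampus and 46.3% in cerebellum.

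At the same sites the order was the opposite. The 5 cerebellar Adcy1 sites were all listed in cortex and in hippocampus, where 58.2% and 49.9% of all cerebellar sites were. All 5 were at least 2-fold lower in cerebellum than in either. Their median log2 ratio of cerebellum to cortex was -1.90 (SD 0.34 over sites). The ratio of cortex to cerebellum was largest at 7172759, with 5.48% and 1.09%, and smallest at 7173419, with 8.23% and 2.98%. At 7170612 the hippocampal level, 10.1%, was above the cortical one, 6.29%, and the cerebellar level was 1.69%. Of the 20 Adcy1 sites shared by cortex and hippocampus, 14 were higher in cortex, and the 1 beyond 2-fold was 7177323, with 3.78% and 1.34%. The 35 cortical sites that cerebellum lacked had a median of 1.66% and did not exceed 5.73%, while the 5 it listed had a median of 8.23%. Over all genes, these medians were 2.59% and 3.6%.

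Over Camkk2, Ppp3ca, Prkce and Adcy1 together, 28 of 31 sites shared by cortex and cerebellum were lower in cerebellum, 23 at least 2-fold, where 47.1% and 12.0% of all shared sites were. Of the 30 sites shared by hippocampus and cerebellum, 27 were lower in cerebellum, 18 at least 2-fold, where 47.9% and 11.4% of all shared sites were. These genes were chosen on such differences, and sites of 1 gene are not independent. Absence from a list does not show that a site was unedited, and unlisted sites do not enter the ratios.

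For each gene the most similar ones were sought by site number alone, as the Euclidean distance in log2(number + 1) over the 3 regions. Nearest to Camk2a were Atp6v1g2 (29, 27 and 26 sites in cortex, hippocampus and cerebellum), Ppp2ca (28, 28 and 22) and Ube2ql1 (30, 27 and 24). Their median levels in cortex and cerebellum were 5.41% and 4.95%, 3.90% and 3.06%, and 2.64% and 2.92%. Those of Camk2a were 2.68% and 4.69%, so its cortical median was close to that of Ube2ql1 and its cerebellar one to that of Atp6v1g2. Within a distance of 0.5 of Camk2a lay 19 genes, of which only these 3 are described. Because Camk2a was chosen with its site number and level known, nothing is read from this comparison. Nearest to Camkk2 were Arhgap32 (27, 8 and 4), Gpr158 (25, 7 and 4) and Dclk1 (18, 11 and 3), and nearest to Ppp3ca were Kcnd2 (24, 37 and 11), Slc24a3 (29, 29 and 13) and Sv2b (31, 38 and 11). Nearest to Adcy1 were Socs5 (37, 24 and 5), Fam171b (38, 31 and 4) and Ppp1r9a (51, 31 and 5). Prkce had no gene within a distance of 0.5, and its nearest were Zbtb18 (57, 53 and 8), Rab3c (42, 48 and 15) and Ntrk2 (61, 44 and 21).

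The other genes of the pathway were taken from 8 lists of CaM kinases, calmodulin, calcineurin, adenylyl cyclases, protein kinases A and C, phosphodiesterases and substrates. Of 91 such genes, 50 had a site in any region, and 45 were listed for cortex, 40 for hippocampus and 30 for cerebellum. Of all 3731 genes with a site, 3163 were listed for cortex, 2547 for hippocampus and 2228 for cerebellum. At least 2-fold more sites in cortex than in cerebellum were found for 30 of 49 genes (61.2%), beside 49.5% of all genes, and at least 2-fold more in cerebellum for 5 (10.2%), beside 14.6%. The median log2 ratio of site numbers was -1.0 for these genes and -0.85 for all genes.

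Among the CaM kinase genes, 9 of 12 with sites (75.0%) had at least 2-fold more in cortex than in cerebellum, Camkk2 included, beside 49.5% of all genes, and 0 had the reverse, beside 14.6%. Camkv and Pnck counted with 1 cortical and 0 cerebellar sites each, so their place in this count rests on 1 site. Camk2n1, an inhibitor of CaMKII, had 33, 21 and 20 sites in cortex, hippocampus and cerebellum, and all its 19 sites shared by cortex and cerebellum were higher in cortex. Camk1d had 26, 23 and 3, and Camk2g, another CaMKII subunit, had 23, 16 and 11. Camk2g was higher in cortex at 8 of its 10 shared sites, although over all its sites the median was 2.55% in cortex and 3.01% in cerebellum and the highest level 10.7% and 17.2%.

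The calcineurin list had sites in 5 of 14 genes. Ppp3r1, the regulatory subunit, had 22, 24 and 11 sites and was higher in cortex at 9 of 10 shared sites. Ppp3cb, another catalytic subunit, had 19, 27 and 10, and 4 of its 8 shared sites were higher in each region. Rcan2, an inhibitor of calcineurin, had 8 in every region. Of the calmodulin genes, Calm3 had 11 in cortex, 12 in hippocampus and 7 in cerebellum. Calm2 had 2 in each.

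Of the adenylyl cyclases, 3 of 10 had sites. Adcy5, the main striatal isoform, had 13, 6 and 1, and Adcy2 had 5, 1 and 0. In the protein kinase C list, Prkca had 24 cortical, 43 hippocampal and 0 cerebellar sites, and Prkcb had 12, 16 and 2. In the protein kinase A list, 3 of 10 genes (30.0%) had at least 2-fold more sites in cortex than in cerebellum and 2 (20.0%) the reverse, beside 49.5% and 14.6% of all genes. Prkar1b had 14, 21 and 11 sites and Prkacb 16, 14 and 9. Pkia, an inhibitor of the kinase named after its values were seen, had 10, 8 and 1. The anchor Akap6 had 17, 7 and 8, with all 5 shared Akap6 sites higher in cerebellum than in cortex.

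Of the 15 phosphodiesterase genes, 7 had a site, with 6 listed for cortex, 3 for hippocampus and 0 for cerebellum. Of all 3731 genes with a site, 3163, 2547 and 2228 were listed for these regions. Pde1a, whose product is activated by calcium and calmodulin, had 27, 25 and 0, Pde4b 8, 0 and 0, and Pde4a 3, 1 and 0. Among substrates and transcription factors, Marcks, a protein kinase C substrate, had 26, 17 and 5 sites, and Mef2a had 7, 11 and 8. Genes with at least 2-fold more sites in cerebellum included Ppp1r1b with 3 cerebellar sites, Pcp4 with 2, and Prkar2a and Akap12 with 1 each. These 4, named after their values were seen, had 0 in cortex.

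**Figure D5:**
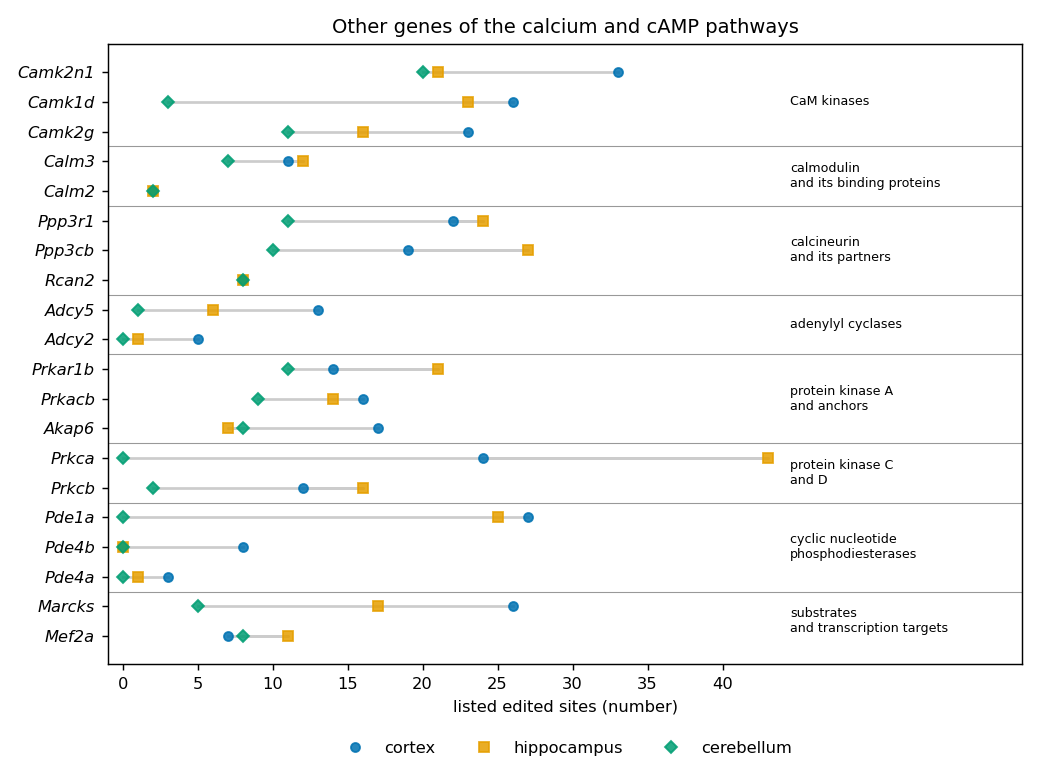
Number of listed sites (horizontal axis) in cortex, hippocampus and cerebellum for further genes of each pathway list, from the 3 with the most sites. Prkca and Pde1a have 0 sites in cerebellum, and Rcan2 has 8 in every region.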

How the data were processed

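Poly(A) RNA libraries were made from 900 ng of total RNA with a directional kit, per the labels' protocols. STAR 2.7.5 and the build mm10 are named in the submitters' processing notes. Per the labels, site calling took APOBEC1-YTHmut libraries as background. No caller, threshold, depth minimum or way of combining libraries is given in the sources used here. The authors deposited a list per region, with no header, holding chromosome, start, end, gene symbol, a fraction and strand. The fraction, which was at least 1% everywhere, was multiplied to percent and read as the APOBEC1-YTH editing level of the region, an assumption the lists leave unsettled. Depth per library is unknown, so no interval or limit for unlisted sites was computed.

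Positions are the listed end coordinates. They were checked on the 29 sites inside RefSeq promoter windows of the same strand (GRCm38.p6): all 29 were C and all were preceded by A. None was a member site. All 5 symbols matched the RefSeq gene table.

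A shared site has the same chromosome, position and strand. A difference of 2-fold was counted without a test, beside the same count over all sites or genes. Site-number ratios used a pseudocount of 1. Members and lists were chosen with earlier results of these data known. Named genes were the members, up to 3 genes per list with the most sites and the 3 nearest genes per member, and some of them are not reported here. Named sites were the highest per region, those with the largest ratios, and some chosen after their values were seen. The counting was tested on simulated data. Tools were pandas 2.3.3 and numpy 2.4.6 in Python 3.11.15, with scipy 1.17.1 for intervals and matplotlib 3.10.9 for figures.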

Additional observations from a re-analysis of the deposited data

How the results depend on the processing

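Of 205 recomputed values that answer a comparison, 160 stayed within 1.5-fold of the reported one, or, for Camk2a's place among genes, within its exact 95% binomial interval. The other 45 moved further. No log2 ratio turned from positive to negative or back, but the order of median levels between regions did for 3 genes. With minimum levels of 2%, 5% and 10%, the 5 genes kept 116, 45 and 11 cortical sites and 100, 28 and 14 hippocampal ones, and with 5% and 10% they kept 15 and 6 cerebellar ones. The log2 ratio of site numbers, cerebellum to cortex, was 1.12 for Camk2a and -3.00 for Ppp3ca at a 5% minimum. At 10% it was 1.81 for Camk2a, -1.58 for Camkk2 and Adcy1 and 0.00 for Ppp3ca, which had no site left. The equal site number of Camk2a thus depended on the minimum level.

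Over sites in all 3 regions, medians in cortex, hippocampus and cerebellum were 18.6%, 10.7% and 2.67% for Camkk2, which had only 2 such sites. Medians were 5.10% and 4.51% in cortex and hippocampus for Ppp3ca (11 sites). Adcy1 (5 sites) had 8.23% and 10.5% there, and Prkce (11 sites) had 7.37% in cortex. Adcy1, at 1.80% in cortex and 2.98% in cerebellum over all its sites, was thus higher in cortex by this measure, with 2.98% again in cerebellum. Camkk2 was at 2.04% in cortex and 2.31% in hippocampus over all sites and in the opposite order here. For Camk2a, 2.68% and 2.51% became 3.34% and 3.75%, and merging sites within 10 nt also put hippocampus above cortex. With unlisted sites set to the lowest listed level, median log2 ratios of cerebellum to cortex were -0.93 for Camkk2 and -0.84 for Adcy1, and to hippocampus -1.10 for Camkk2, -1.34 for Prkce and -0.87 for Adcy1. Camk2a then had 16 sites at least 2-fold higher than in cortex, and the other genes 90 and 72 lower than in cortex and hippocampus. As the lowest level was 1% in each list, any site of 2% or more that the other list lacked became 2-fold. These counts therefore largely reflect which sites were listed, and no share over all sites was computed under this setting. With 5% required in 1 region, Camkk2 was at -2.95 against cortex and 11 sites of the other genes were 2-fold lower than in hippocampus. Sharing within 10 nt gave -1.19 for Camkk2 against hippocampus.

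Among genes with at least 2 or 10 sites, 93.8% and 75.1% had fewer sites than Camk2a in cortex, 95.1% and 78.5% in hippocampus, and 95.1% and 77.3% in cerebellum. By level, 44.0% lay below it in cortex and 72.4% in cerebellum with at least 2 sites. With at least 10 sites, 81.5% lay below it by level in cerebellum, more than the 77.3% by site number. By mean level the shares were 54.5%, 47.4% and 88.2% in the 3 regions, the last close to the 89.5% by site number. The lower cerebellar place by level thus depended on the measure. With 2 sites required of a listed gene, 3 pathway genes had 2-fold more sites in cerebellum. No paired analysis was possible because each region has 1 value per site, and for the same reason no library could be left out.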

Other observations

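Some values fell outside the comparisons above. Camk1d had 26 cortical and 3 cerebellar sites, and its highest levels were 29.2% and 25.4%. Akap6 had a median log2 ratio of cerebellum to cortex of 1.30 over 5 shared sites, beside 1.16 over 19 for Camk2a, with 17 cortical and 8 cerebellar sites.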
